A study of Mus musculus with 4 samples.

Results

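The extracellular matrix genes described here are the collagens, laminins, fibrillins, fibulins, fibronectin, the basement membrane linkers, Emid1 and the ADAMTS family, read out in sorted mouse megakaryocytes labelled Gfi1b knockout or wild-type. They were chosen by gene symbol, and 91 of the 41214 gene identifiers matched. Of these, 57 reached a summed count of at least 20 over the 4 libraries and 34 did not, 7 of them with no count at all. Just inside that limit stood Col5a2 and Lama1 with 20 counts each, and just outside it Col13a1 with 19 and Adamts2 with 18. By class, the 57 are 25 collagens, 9 laminins, 4 basement membrane linkers, 4 genes of the group of fibronectin, fibrillins, fibulins and Emid1, 11 ADAMTS proteases and 4 ADAMTS-like genes.

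Megakaryocytes are the large bone marrow cells that shed platelets. They sit against marrow sinusoids and a matrix of collagen, laminin and fibronectin, which they sense through integrins and glycoprotein VI, and they also make matrix themselves. Basement membranes are sheets in which a laminin network, built from trimers of an alpha, a beta and a gamma chain, is joined to a collagen IV network by nidogen, perlecan and agrin. ADAMTS proteins are secreted metalloproteases with thrombospondin repeats that cut procollagens, proteoglycans or other matrix proteins, and ADAMTS-like proteins share the repeats but not the protease.

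The 4 groups, of 1 library each, were Gfi1b knockout with PF4-Cre, Gfi1b wild-type with PF4-Cre, Gfi1b knockout with ROSA-Cre and Gfi1b wild-type with ROSA-Cre. All were C57Bl/6 mice aged 8 weeks, and the labels give the wild-type libraries the same Cre status as their knockout partners. The Pf4 promoter of the first Cre is active in the megakaryocyte lineage, while for ROSA-Cre no driver is described, and neither the deleted exons nor the number of mice behind 1 library is given. Cells were sorted from leg and upper arm bones as lineage-negative and positive for cKit, CD41 and CD61, and stranded mRNA libraries were sequenced. The question was which transcripts differed with loss of Gfi1b, a zinc finger repressor of the megakaryocyte and red cell lineages.

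Gene counts totalled 59595680 in the PF4-Cre knockout and 61652843 in the PF4-Cre wild-type library, against 21835165 in the ROSA-Cre knockout and 24869421 in the ROSA-Cre wild-type library. Where a gene had no count, its level could still be up to 0.0496 and 0.0502 counts-per-million units (CPM) in PF4-Cre knockout and wild-type and 0.134 and 0.122 CPM in ROSA-Cre knockout and wild-type. Gfi1b itself had 84744 counts in PF4-Cre knockout and 10137 in PF4-Cre wild-type, and 55122 in ROSA-Cre knockout and 5864 in ROSA-Cre wild-type. The count went up where a loss of transcript would lower it, and which exons it covers is not given, so each direction given for knockout rests on the library labels. Of 11 megakaryocyte markers all were detected, with a summed level of 6258 and 5667 CPM in PF4-Cre knockout and wild-type and 5238 and 7239 CPM in ROSA-Cre knockout and wild-type. Of 11 stromal markers 5 had fewer than 20 counts in all, and of 7 smooth muscle and pericyte markers 5 did. Within the stromal list Dcn, Lum and Prrx1 had 0 counts in both knockout libraries, while the highest count of a library was 377 for Kitl, 336 for Cxcl12, 304 for Pdgfrb and 231 for Postn.

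The proximal promoters of 7 genes past the genotype test below, 6 higher in knockout and Col1a2 lower, are given first, as RefSeq has them on GRCm38.p6 (250 bases before to 50 after the start). They are shown because the results on each class turn on these genes, and because AATC is the core of the DNA site of GFI1 and GFI1B. Capitals mark AATC on either strand, so that it reads GATT where the match is on the other strand. RefSeq's start can differ from the outermost GENCODE start (as for Fbn1 and Col1a2). The windows are chr2:125506389-125506688 (minus strand) for Fbn1, chr9:108479612-108479911 (plus strand) for Lamb2, chr6:92943485-92943784 (minus strand) for Adamts9, chr19:47691993-47692292 (minus strand) for Col17a1, chrX:141475169-141475468 (plus strand) for Col4a5, chrX:141474027-141474326 (minus strand) for Col4a6 and chr6:4505368-4505667 (plus strand) for Col1a2.
Fbn1: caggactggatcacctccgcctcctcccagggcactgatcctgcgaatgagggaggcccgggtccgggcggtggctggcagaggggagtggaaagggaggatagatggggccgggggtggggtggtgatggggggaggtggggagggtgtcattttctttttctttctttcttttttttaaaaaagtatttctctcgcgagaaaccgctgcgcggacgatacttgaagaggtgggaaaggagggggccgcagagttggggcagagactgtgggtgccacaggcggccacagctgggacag
Lamb2: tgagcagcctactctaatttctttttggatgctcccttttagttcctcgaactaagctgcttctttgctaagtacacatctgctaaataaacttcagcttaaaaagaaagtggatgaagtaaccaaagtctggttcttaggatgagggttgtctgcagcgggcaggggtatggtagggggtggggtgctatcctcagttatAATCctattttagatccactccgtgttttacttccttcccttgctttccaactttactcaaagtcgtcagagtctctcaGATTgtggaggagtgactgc
Adamts9: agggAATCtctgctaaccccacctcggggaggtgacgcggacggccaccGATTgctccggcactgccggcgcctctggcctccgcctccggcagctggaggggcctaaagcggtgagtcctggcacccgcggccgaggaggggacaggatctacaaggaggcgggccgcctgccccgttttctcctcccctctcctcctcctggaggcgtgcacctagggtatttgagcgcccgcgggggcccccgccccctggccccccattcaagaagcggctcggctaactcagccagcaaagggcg
Col17a1: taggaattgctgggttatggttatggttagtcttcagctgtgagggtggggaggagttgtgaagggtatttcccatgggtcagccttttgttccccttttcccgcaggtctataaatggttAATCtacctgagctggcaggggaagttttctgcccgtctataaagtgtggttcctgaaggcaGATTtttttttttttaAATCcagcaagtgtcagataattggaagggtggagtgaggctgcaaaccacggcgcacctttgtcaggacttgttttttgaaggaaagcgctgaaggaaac
Col4a5: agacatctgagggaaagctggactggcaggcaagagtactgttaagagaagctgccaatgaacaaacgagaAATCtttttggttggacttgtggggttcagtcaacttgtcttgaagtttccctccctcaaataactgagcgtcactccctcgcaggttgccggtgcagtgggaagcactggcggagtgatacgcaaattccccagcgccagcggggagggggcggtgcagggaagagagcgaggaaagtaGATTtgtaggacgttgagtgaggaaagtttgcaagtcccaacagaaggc
Col4a6: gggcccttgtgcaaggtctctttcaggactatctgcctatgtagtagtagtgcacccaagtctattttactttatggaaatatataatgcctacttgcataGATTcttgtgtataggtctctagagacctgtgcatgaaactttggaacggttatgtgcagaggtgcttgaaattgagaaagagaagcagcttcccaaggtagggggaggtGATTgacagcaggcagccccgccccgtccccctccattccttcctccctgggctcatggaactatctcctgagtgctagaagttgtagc
Col1a2: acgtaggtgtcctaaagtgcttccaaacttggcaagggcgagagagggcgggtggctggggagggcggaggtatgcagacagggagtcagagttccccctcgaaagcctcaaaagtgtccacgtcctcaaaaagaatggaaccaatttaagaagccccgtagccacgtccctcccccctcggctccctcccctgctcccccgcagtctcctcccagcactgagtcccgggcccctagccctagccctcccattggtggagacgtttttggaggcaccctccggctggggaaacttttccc
Each is written 5′ to 3′ on the strand of its gene. The 4 letters occur in the windows of Lamb2, Adamts9, Col17a1, Col4a5 and Col4a6 and not in those of Fbn1 and Col1a2. Promoters were matched for 40 of the 57 members, among them 9 of the 14 higher and all 5 lower ones. Of all 32851 RefSeq promoters of this length, 73.1% hold AATC on either strand, and of 45 promoters of 40 members 53.3% do. It occurs in 7 of 9 promoters of members higher in knockout and in 1 of 6 of members lower in knockout. The longer site TAAATCAC, which overlaps AATC, occurs in 0.578% of all promoters and in 0 of the 45. The GATA motifs AGATAA and TGATAA occur in 11.2% and 9.05% of all promoters and in 4.44% and 2.22% of the 45, and the ETS motif CGGAAG in 16.9% and 8.89%. A match is a description of letters, not a bound site.

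The genotype comparison asked which of these genes differed between knockout and wild-type in both Cre models. In knockout libraries 14 of the 57 genes were higher and 5 lower, 25 were tested without passing, and 13 were too low to be tested. Over all 15063 tested genes 12.6% were called higher and 9.59% lower, 22.2% in either direction. The genes that rose were 3 laminin chains, 4 collagen IV chains, 2 transmembrane collagens, the fibrillin Fbn1 and 4 ADAMTS proteases. Those that fell were Emid1, Col1a2, Col5a3, Col4a2 and Col6a1. The median log2 fold change was 0.38 over the 44 tested members and -0.02 over all tested genes. That median is not a result about the members, since 8 of the 44 passed the low-count filter with both wild-type libraries below its limit of 0.237 CPM, 7 of them called higher, and 2 passed with both knockout libraries below it, both called lower. Calls come from edgeR (quasi-likelihood, Cre model and genotype as terms) at a Benjamini-Hochberg adjusted p under 0.05. The spread behind each p joins the gene's own disagreement of the models over the genotype change (n = 2 libraries per genotype) with a value drawn from all genes. Their weights are 1 residual and 6.25 prior degrees of freedom. The disagreement can hold differences between animals, Cre models and library handling, which 1 library per group cannot tell apart. In these bulk samples fewer cells of a type and less RNA per cell cannot be told apart. Fits without 1 library, here and below, also drop the Cre model term and leave 1 library in a genotype. Far fewer of all genes were called in them, so a kept or lost call reflects that change of design as well as the missing library. Of the 14 higher genes, 11 were still called without the PF4-Cre knockout library, 7 without PF4-Cre wild-type, 10 without ROSA-Cre knockout and 10 without ROSA-Cre wild-type, and of the 5 lower genes 3, 1, 1 and 0.

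**Figure D1:**
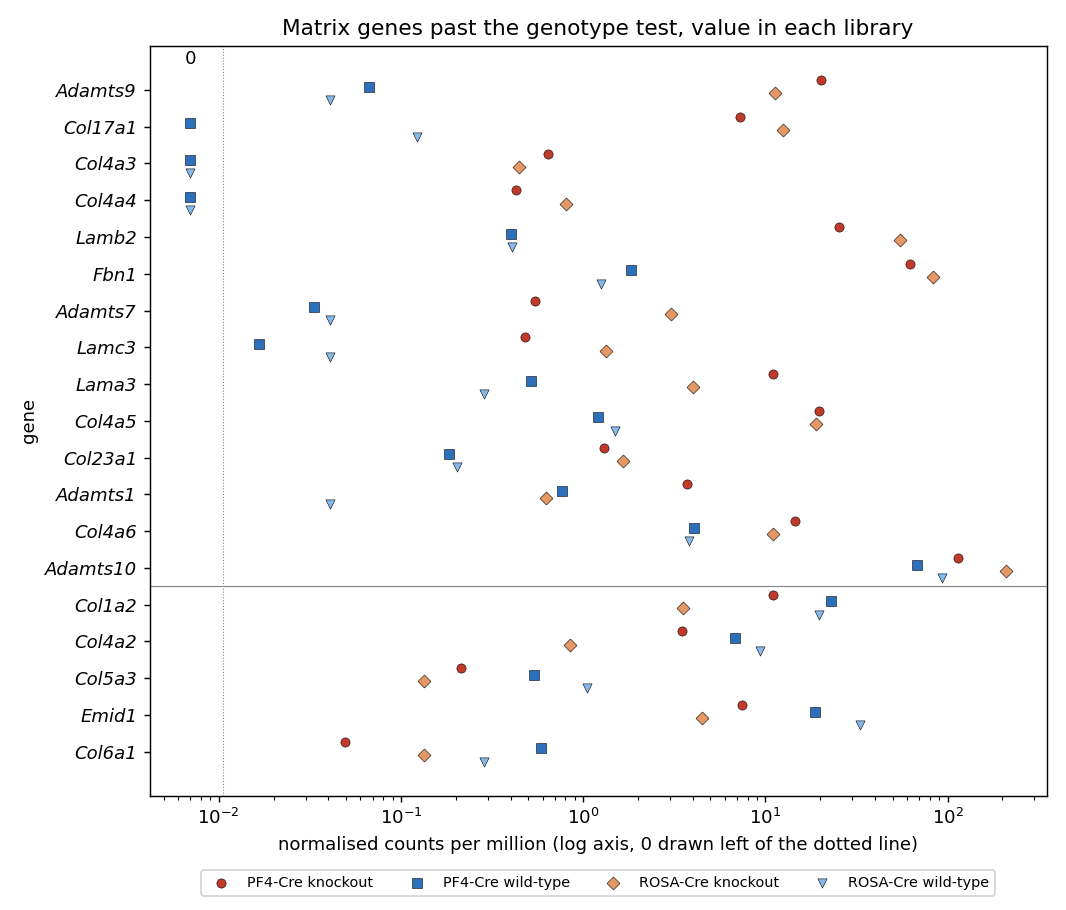
Normalised CPM (log axis) of the 14 matrix genes higher and, below the line, the 5 lower in knockout, 1 point per library, with a count of 0 drawn left of the dotted line. For 18 of the 19 genes both knockout points lie on the same side of both wild-type points, and Adamts1 is the exception, with 0.625 CPM in ROSA-Cre knockout and 0.77 CPM in PF4-Cre wild-type. The 19 genes were picked by the genotype test on these same libraries, so this separation is no further support for the calls. The share of all genes separated in this way is not given.

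Of the 9 laminin chains 3 rose, Lamb2, Lama3 and Lamc3. Lamb2, the beta-2 chain of laminins at the neuromuscular junction, kidney filter and vessel walls (chromosome 9, 108479736 to 108490530, plus strand, GRCm38 with GENCODE M21), had 1537 counts in PF4-Cre knockout and 24 in PF4-Cre wild-type, and 1227 in ROSA-Cre knockout and 10 in ROSA-Cre wild-type. Both knockout libraries stood far above both wild-type libraries, and the ROSA-Cre knockout, at 54.8 CPM, was above the PF4-Cre knockout at 25.4 CPM. By the ratio of normalised counts, knockout was 63.3-fold higher in PF4-Cre and 135-fold higher in ROSA-Cre, with 95% Clopper-Pearson intervals (counting error) of 42.4 to 99.1 and 73.1 to 282. Across the models Lamb2 rose by 6.40 log2 units (SE 0.30, adjusted p = 0.000107), a call that held without each library in turn. Lama3, the alpha-3 chain of epithelial laminin, had 669 and 31 counts in PF4-Cre knockout and wild-type and 90 and 7 in ROSA-Cre knockout and wild-type, a rise of 4.28 log2 units (SE 0.41, adjusted p = 0.00119). Lamc3, a gamma chain described in brain and eye, had 29 counts in PF4-Cre knockout against 1 in PF4-Cre wild-type and 30 in ROSA-Cre knockout against 1 in ROSA-Cre wild-type. Its ratios of 28.7 (interval 4.75 to 1170.2) and 33.0 (5.48 to 1345) have wide intervals because the wild-type counts were 1. Lamc3 rose by 4.78 (SE 0.69, adjusted p = 0.00381), without the call when PF4-Cre wild-type (adjusted p = 0.322) or ROSA-Cre knockout (adjusted p = 0.0702) was left out.

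The usual partners of these chains did not pass the test. Lamc1, the gamma-1 chain found in most laminins and the most abundant laminin gene in wild-type libraries, had a level per kilobase of exon of 4.10 CPM in PF4-Cre knockout and 2.67 in PF4-Cre wild-type, and 3.21 in ROSA-Cre knockout and 3.08 in ROSA-Cre wild-type. In knockout Lamb2 stood at 4.18 and 9.01 CPM per kilobase in PF4-Cre and ROSA-Cre, against 0.066 and 0.0668 in wild-type, so the beta-2 chain was close to the gamma-1 chain in PF4-Cre knockout, above it in ROSA-Cre knockout and far below it in both wild-type libraries. Lamb1, the widespread beta-1 chain, had 15 and 12 counts in PF4-Cre knockout and wild-type and 33 and 3 in ROSA-Cre knockout and wild-type. That gave 1.71 log2 units (SE 0.55, adjusted p = 0.0658), and knockout stood 1.24-fold higher in PF4-Cre and 12.1-fold in ROSA-Cre. The alpha chains Lama4 and Lama5 had log2 fold changes of 0.03 and -0.16 (adjusted p = 0.972 and 0.745). Lama1 and Lamb3 were too low to test, with 20 and 31 counts over all libraries, and Lama2 had 2.

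Summed over laminins and linkers, the level per kilobase was 11.8 CPM in PF4-Cre knockout and 4.75 in PF4-Cre wild-type, and 15.8 in ROSA-Cre knockout and 6.78 in ROSA-Cre wild-type, 2.49-fold and 2.33-fold higher in knockout. Most of this difference was Lamb2 alone, at 4.18 and 0.066 in PF4-Cre knockout and wild-type and 9.01 and 0.0668 in ROSA-Cre knockout and wild-type. In ROSA-Cre it was nearly all of the difference, so the sums do not show a rise of the class as a whole. None of the linkers passed the test, and 0 did at an unadjusted p under 0.05 or with DESeq2's Wald test. Agrn, the proteoglycan that gathers acetylcholine receptors at the synapse and binds laminin, had 981 and 688 counts in PF4-Cre knockout and wild-type and 459 and 576 in ROSA-Cre knockout and wild-type (log2 fold change 0.16, SE 0.22, adjusted p = 0.641). Its ratios, 1.41 and 0.876, point in opposite directions. Nid2, which joins laminin to collagen IV, had 107 and 108 counts in PF4-Cre knockout and wild-type and 16 and 67 in ROSA-Cre knockout and wild-type (-0.63, SE 0.46, adjusted p = 0.361). The Nid2 span overlaps that of Rtraf on the other strand, which had 1512 to 6890 counts. Perlecan (Hspg2) had 17 to 27 counts in every library and Nid1 3 to 11.

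**Figure D2:**
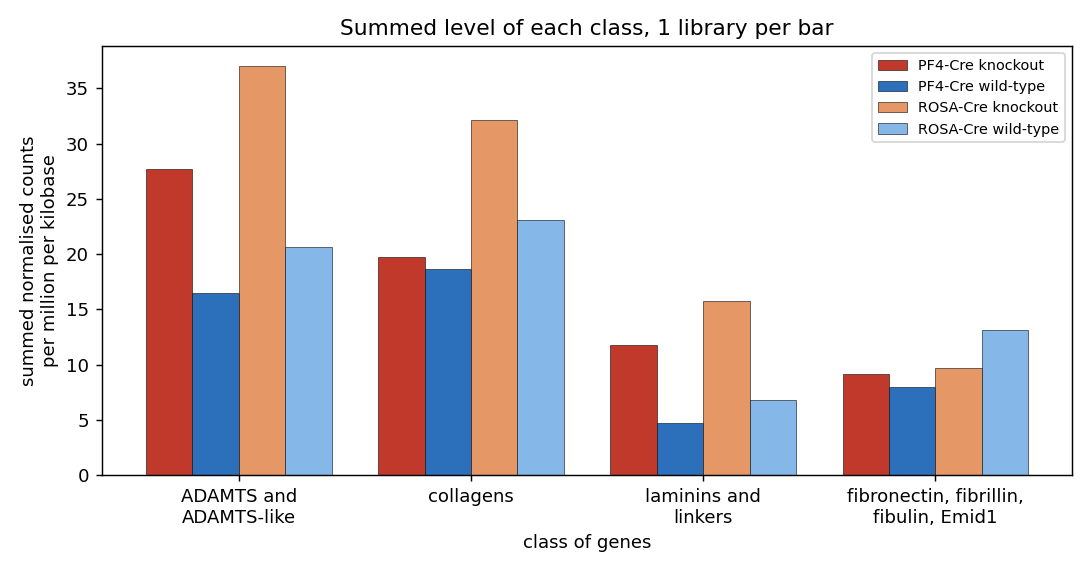
Summed level of each class in normalised CPM per kilobase of exon, 1 bar per library, with knockout left of its wild-type. The laminin and linker bars are 11.8 and 15.8 in knockout and 4.75 and 6.78 in wild-type, and the collagen bars 19.8 and 32.2 in knockout and 18.6 and 23.1 in wild-type. Lamb2 alone makes up 4.18 and 9.01 of the knockout laminin and linker bars.

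Collagen IV, the sheet-forming collagen of basement membranes, differed between the genotypes in its make-up of chains. Its 6 genes lie as 3 pairs, each transcribed away from a common start region, and the starts lie 21 bases apart for Col4a1 and Col4a2 on chromosome 8, 72 for Col4a3 and Col4a4 on chromosome 1 and 1309 for Col4a5 and Col4a6 on chromosome X (GRCm38, GENCODE M21). The pair of Col4a1 and Col4a2, found in almost every basement membrane, made up 23.5% of the summed collagen IV level per kilobase in PF4-Cre knockout and 78.1% in PF4-Cre wild-type, and 5.17% in ROSA-Cre knockout and 80.4% in ROSA-Cre wild-type. The pair of Col4a5 and Col4a6, of which the alpha-5 chain is defective in human X-linked Alport kidney disease, made up 74.8% and 21.9% in PF4-Cre knockout and wild-type and 92.2% and 19.6% in ROSA-Cre knockout and wild-type. So the order of the pairs was turned round in both models.

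Col4a5 (chromosome X, 141475385 to 141689234, plus strand) had 1187 counts in PF4-Cre knockout and 72 in PF4-Cre wild-type, and 424 in ROSA-Cre knockout and 37 in ROSA-Cre wild-type. The libraries of each genotype were alike, 19.6 and 18.9 CPM in knockout against 1.20 and 1.503 CPM in wild-type (PF4-Cre, then ROSA-Cre). Col4a5 rose by 3.87 log2 units (SE 0.27, adjusted p = 0.000306), and the call held without each library. Its neighbour Col4a6 had 878 and 242 counts in PF4-Cre knockout and wild-type and 248 and 94 in ROSA-Cre knockout and wild-type, a smaller rise of 1.71 (SE 0.25, adjusted p = 0.00537). The Col4a6 call was lost without PF4-Cre knockout (adjusted p = 0.0941), PF4-Cre wild-type (0.123) or ROSA-Cre wild-type (0.117).

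Col4a3 and Col4a4, the chains that join alpha-5 in the kidney filter, had no read in either wild-type library. Col4a3 had 39 counts in PF4-Cre knockout and 10 in ROSA-Cre knockout, against 0 in both wild-type libraries, and Col4a4 had 26 and 18, against 0. Set against a floor of 3 counts per library, Col4a3 was at least 12.8-fold higher in PF4-Cre and at least 3.66-fold in ROSA-Cre, and Col4a4 at least 8.56-fold and 6.59-fold. Both passed the test (adjusted p = 0.0103 and 0.011), but their fitted fold changes depend on the prior count and are not given as sizes. The 95% counting intervals of these ratios start lower, at 9.96 and 2.46 for Col4a3 and 6.48 and 4.83 for Col4a4. Both calls were lost without PF4-Cre wild-type (adjusted p = 0.323 and 0.332), and Col4a3 was too low to be tested without PF4-Cre knockout and had no adjusted p from DESeq2's Wald test. Col4a3 overlaps the noncoding gene C430014B12Rik on the other strand, which had 18 and 9 counts in PF4-Cre knockout and wild-type and 1 and 10 in ROSA-Cre knockout and wild-type, a different pattern.

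Of the pair of Col4a1 and Col4a2, Col4a2 passed the test and fell. It had 212 counts in PF4-Cre knockout and 410 in PF4-Cre wild-type, a ratio of 0.511 (interval 0.431 to 0.604), and 19 in ROSA-Cre knockout and 230 in ROSA-Cre wild-type, a ratio of 0.0908 (0.0537 to 0.145). Over both models Col4a2 fell by 1.75 log2 units (SE 0.49, adjusted p = 0.0427). The call was lost without PF4-Cre wild-type (adjusted p = 0.0694), ROSA-Cre knockout (0.366) or ROSA-Cre wild-type (0.23). Col4a1 had 433 and 629 counts in PF4-Cre knockout and wild-type and 18 and 270 in ROSA-Cre knockout and wild-type, with ratios of 0.68 and 0.0733. It did not pass (log2 fold change -1.51, SE 0.57, adjusted p = 0.101), though it did with DESeq2's Wald test and without the PF4-Cre knockout library, and the difference between the models could not be tested, since no residual degree of freedom is left for it. Among the other basement membrane collagens, Col18a1, the source of endostatin, and Col7a1, the anchoring fibril collagen of skin, had log2 fold changes of -0.04 and 0.73 (adjusted p = 0.94 and 0.192).

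**Figure D3:**
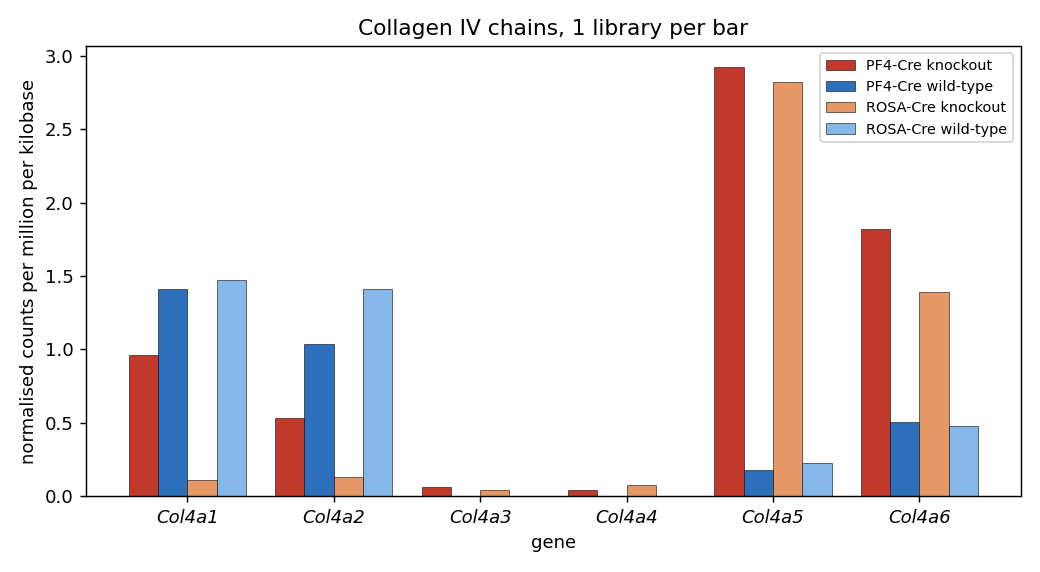
Level of each collagen IV chain in normalised CPM per kilobase of exon, 1 bar per library, with knockout left of its wild-type. Col4a5 stands at 2.92 and 2.82 in PF4-Cre and ROSA-Cre knockout, against 0.179 and 0.224 in their wild-types, while Col4a1 stands at 0.959 and 0.108 in knockout, against 1.41 and 1.47 in wild-type.

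Among the other collagens, 2 with a membrane anchor rose. Col17a1, the hemidesmosome collagen that ties epithelial cells to their basement membrane (chromosome 19, 47646344 to 47692094, minus strand), had 438 counts in PF4-Cre knockout and 0 in PF4-Cre wild-type, and 280 in ROSA-Cre knockout and 3 in ROSA-Cre wild-type. It was at least 144-fold higher in PF4-Cre, against a floor of 3 counts (counting interval from 117), and 103-fold higher in ROSA-Cre (counting interval 34.7 to 500.4). Its adjusted p was 0.000306, and the call held without each library. Col23a1, a transmembrane collagen, had 79 and 11 counts in PF4-Cre knockout and wild-type and 37 and 5 in ROSA-Cre knockout and wild-type. It rose by 2.88 (SE 0.51, adjusted p = 0.0108). That call was lost without PF4-Cre wild-type (adjusted p = 0.279), ROSA-Cre knockout (0.056) or ROSA-Cre wild-type (0.0687). Col6a1, a chain of beaded microfibrils, fell, on 3 and 35 counts in PF4-Cre knockout and wild-type and 3 and 7 in ROSA-Cre knockout and wild-type (log2 fold change -2.71, SE 0.72, adjusted p = 0.0336). Its partner chains Col6a2 and Col6a3 had 13 and 7 counts over all libraries, and its call was lost without PF4-Cre knockout (adjusted p = 0.589), ROSA-Cre knockout (0.22) or ROSA-Cre wild-type (0.189), and it was too low to be tested without PF4-Cre wild-type.

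The most abundant collagens of these cells did not pass the test. Col16a1, a collagen that associates with fibril surfaces, had 2233 and 2760 counts in PF4-Cre knockout and wild-type and 1878 and 1545 in ROSA-Cre knockout and wild-type. Col28a1, a collagen described around glia, had 657 and 1089 counts in PF4-Cre knockout and wild-type and 1035 and 562 in ROSA-Cre knockout and wild-type. Each was lower in the knockout of PF4-Cre and higher in that of ROSA-Cre, with ratios of 0.799 and 1.34 for Col16a1 and 0.596 and 2.02 for Col28a1, and with log2 fold changes of 0.04 and 0.13 over both models (adjusted p = 0.89 and 0.834). Col20a1 and Col9a3 had log2 fold changes of 0.68 and 0.68 (adjusted p = 0.218 and 0.31), and the span of Col20a1 overlaps a more abundant gene on its own strand, BX649560.1, with 308 to 801 counts.

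In the fibrillar class, whose members build the banded fibrils of tendon and bone, 5 of 7 genes were tested. Of these 2 fell and 0 rose (0 also at an unadjusted p under 0.05 and with DESeq2's Wald test). Col1a2, the alpha-2 chain of collagen I (chromosome 6, 4504814 to 4541544, plus strand), had 665 counts in PF4-Cre knockout and 1366 in PF4-Cre wild-type, and 79 in ROSA-Cre knockout and 483 in ROSA-Cre wild-type. Its ratios were 0.481 (interval 0.438 to 0.528) and 0.18 (0.14 to 0.228), and it fell by 1.63 (SE 0.33, adjusted p = 0.0164). The alpha-1 chain that collagen I also needs, Col1a1, had 4 and 5 counts in PF4-Cre knockout and wild-type and 0 and 3 in ROSA-Cre knockout and wild-type, and Col3a1 had 0 and 10, and 0 and 4. So the transcript of 1 chain was present at 3.53 to 22.9 CPM with hardly any of its partner. The Col1a2 call was lost without PF4-Cre wild-type (adjusted p = 0.172), ROSA-Cre knockout (0.431) or ROSA-Cre wild-type (0.0587). Col5a3, a minor chain of collagen V, had 13 and 32 counts in PF4-Cre knockout and wild-type and 3 and 26 in ROSA-Cre knockout and wild-type (log2 fold change -1.82, SE 0.54, adjusted p = 0.04995), a call lost without any 1 of the 4 libraries (adjusted p from 0.323 to 0.695). Col11a2 and Col5a1 had log2 fold changes of -0.36 and 0.39 (adjusted p = 0.355 and 0.456).

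Of the markers of other cells, the neutrophil precursor and macrophage lists had lower sums in knockout in both models, as Col1a2, Col5a3 and Emid1 did. Neutrophil precursor markers summed to 1054 CPM in PF4-Cre knockout and 1724 in PF4-Cre wild-type and to 488 in ROSA-Cre knockout and 1874 in ROSA-Cre wild-type, with 4 of 9 called lower (Mpo, Elane, Prtn3 and Ctsg) and 0 higher. The rest of this list did not fall in PF4-Cre, with ratios of 0.995 for Ltf, 1.13 for Camp, 1.06 for Ngp, 1.23 for S100a8 and 1.22 for S100a9. In ROSA-Cre the whole list was lower in knockout. Macrophage markers summed to 27.2 and 40.1 CPM in PF4-Cre knockout and wild-type and to 19.3 and 49.9 CPM in ROSA-Cre knockout and wild-type, with 2 of 7 lower and 0 higher. Of these Mertk was higher in knockout in PF4-Cre and ROSA-Cre (ratios 1.26 and 2.20), and the rest of the list was lower in both. Stromal markers summed to 13.5 and 14.2 CPM in PF4-Cre knockout and wild-type and to 14.5 and 5.16 CPM in ROSA-Cre knockout and wild-type, with 2 of 11 higher (Postn, Kitl) and 2 lower (Lepr, Cxcl12). Osteoblast markers summed to 13.0 and 14.1 CPM in PF4-Cre knockout and wild-type and 28.2 and 23.6 CPM in ROSA-Cre knockout and wild-type, with 0 of 8 called, 0 also at an unadjusted p under 0.05, and Bglap, Bglap2 and Dmp1 at 0 in all 4 libraries. The part of these cells in the falls was not tested.

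Fbn1 and Emid1 moved in opposite directions. Fbn1 encodes fibrillin-1, the rod of the microfibrils that bind latent TGF-beta and are defective in human Marfan syndrome (chromosome 2, 125300594 to 125507993, minus strand). It had 3743 counts in PF4-Cre knockout and 110 in PF4-Cre wild-type, and 1858 in ROSA-Cre knockout and 31 in ROSA-Cre wild-type, or 61.9 and 83.0 CPM in knockout against 1.84 and 1.26 CPM in wild-type. Knockout libraries were 33.6-fold (interval 27.8 to 41.0) and 65.9-fold (46.2 to 97.2) higher, a rise of 5.44 log2 units (SE 0.25, adjusted p = 0.000107), and the call held without each library. Emid1, a secreted protein with an EMI domain and collagen stretches (chromosome 11, 5106265 to 5152257, minus strand), had 449 and 1125 counts in PF4-Cre knockout and wild-type and 101 and 816 in ROSA-Cre knockout and wild-type. Both knockout libraries lay below both wild-type libraries, 7.42 and 4.51 CPM against 18.8 and 33.2 CPM. Emid1 fell by 2.01 (SE 0.35, adjusted p = 0.00977), not called without ROSA-Cre wild-type (adjusted p = 0.0722).

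Fibronectin (Fn1), the dimer that integrins assemble into fibrils, had 1016 and 865 counts in PF4-Cre knockout and wild-type and 313 and 438 in ROSA-Cre knockout and wild-type. Its ratios of 1.16 and 0.785 lie on either side of 1, and it did not pass (log2 fold change -0.05, SE 0.22, adjusted p = 0.896). Fibulin-1 (Fbln1) had 3 to 14 counts, too few to test, and Fbn2, Fbln2, Fbln5 and Fbln7 fell under the limit of 20 counts. By level per kilobase, averaged over both models, Fbn1 took the 4th place of the 57 genes in knockout and the 24th in wild-type, Lamb2 the 3rd and the 32nd, and Emid1 the 11th and the 2nd.

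Of the 11 ADAMTS proteases 9 were tested, and 4 rose and 0 fell (0 also at an unadjusted p under 0.05 and with DESeq2's Wald test). Over all tested genes 12.6% were called higher and 9.59% lower, so in a class this small 0 falls say little. Adamts5, too low to test, had 5 and 20 counts in PF4-Cre knockout and wild-type and 3 and 1 in ROSA-Cre knockout and wild-type. Adamts9, a protease of versican and aggrecan (chromosome 6, 92772699 to 92943492, minus strand), had 1224 counts in PF4-Cre knockout and 4 in PF4-Cre wild-type, and 254 in ROSA-Cre knockout and 1 in ROSA-Cre wild-type. Knockout libraries had 20.2 and 11.3 CPM and wild-type libraries 0.0669 and 0.0406 CPM. Knockout was 302-fold (interval 118 to 1111) and 279-fold (49.7 to 11069) higher, and Adamts9 rose by 8.15 log2 units (SE 0.43, adjusted p = 0.000107), called without each library in turn. The antisense gene 9530026P05Rik, which overlaps its span, had 207 and 1 counts in PF4-Cre knockout and wild-type and 46 and 0 in ROSA-Cre knockout and wild-type. The strand setting of the counting is not given, so reads of this pair cannot be told apart with certainty. Adamts10, which binds fibrillin-1 and is mutated in human Weill-Marchesani syndrome, was the most abundant of the 57 genes per kilobase in both genotypes, averaged over both models. In ROSA-Cre wild-type alone Emid1 stood slightly above it, at 11.47 against 11.24 CPM per kilobase. Adamts10 had 6936 and 4087 counts in PF4-Cre knockout and wild-type and 4673 and 2284 in ROSA-Cre knockout and wild-type, with ratios of 1.68 (1.61 to 1.74) and 2.25 (2.14 to 2.36). Adamts10 rose by 0.96 (SE 0.14, adjusted p = 0.00582), not called without PF4-Cre wild-type (adjusted p = 0.354), ROSA-Cre knockout (0.718) or ROSA-Cre wild-type (0.0552).

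The other proteases that rose were scarce. Adamts7, a protease of cartilage oligomeric matrix protein linked to coronary disease in human studies, had 33 and 2 counts in PF4-Cre knockout and wild-type and 68 and 1 in ROSA-Cre knockout and wild-type. It rose by 5.03 (SE 0.69, adjusted p = 0.0033), not called without PF4-Cre wild-type (adjusted p = 0.111) or ROSA-Cre knockout (0.0681). Its span overlaps the more abundant Tbc1d2b on the other strand, which had 5656 and 6545 counts in PF4-Cre knockout and wild-type and 2932 and 2358 in ROSA-Cre knockout and wild-type. Adamts1, an inhibitor of vessel growth that cuts proteoglycans, had 226 and 46 counts in PF4-Cre knockout and wild-type and 14 and 1 in ROSA-Cre knockout and wild-type. Knockout was higher within each model, while the ROSA-Cre knockout lay below the PF4-Cre wild-type in CPM. It rose by 2.38 (SE 0.43, adjusted p = 0.0107), and without the PF4-Cre knockout library the log2 fold change was 0.34 (adjusted p = 0.918), without ROSA-Cre wild-type 1.64 (adjusted p = 0.396).

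Of the proteases that did not pass, Adamts6 and Adamts3 were the most abundant. Adamts6, a relative of Adamts10, had 1305 and 821 counts in PF4-Cre knockout and wild-type and 379 and 279 in ROSA-Cre knockout and wild-type (log2 fold change 0.62, SE 0.19, adjusted p = 0.056). Adamts3, a procollagen N-protease that also acts on VEGF-C, had 1067 and 704 counts in PF4-Cre knockout and wild-type and 569 and 459 in ROSA-Cre knockout and wild-type (0.52, SE 0.18, adjusted p = 0.0821). In both genes knockout was higher within each model, by ratios of 1.36 to 1.57, and with the low-count limit set at 5 CPM on average both passed (adjusted p = 0.0301 for Adamts6 and 0.0444 for Adamts3). Adamts12 and Adamts20 had log2 fold changes of 0.36 and 0.32 (adjusted p = 0.412 and 0.649). Adamts13, the protease of von Willebrand factor, had 1 count over all libraries, and its substrate Vwf had 88075 and 84569 counts in PF4-Cre knockout and wild-type and 34852 and 64624 in ROSA-Cre knockout and wild-type, without passing the test (-0.36, SE 0.23, adjusted p = 0.294). Of the 4 ADAMTS-like genes Adamtsl5 alone was abundant enough to test, with 1392 and 995 counts in PF4-Cre knockout and wild-type and 297 and 453 in ROSA-Cre knockout and wild-type, and it did not pass (0.03, SE 0.25, adjusted p = 0.939). Adamtsl4, Adamtsl2 and Adamtsl1 had 3 to 11 counts in each library, except for 2 of Adamtsl2 in ROSA-Cre wild-type.

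**Figure D4:**
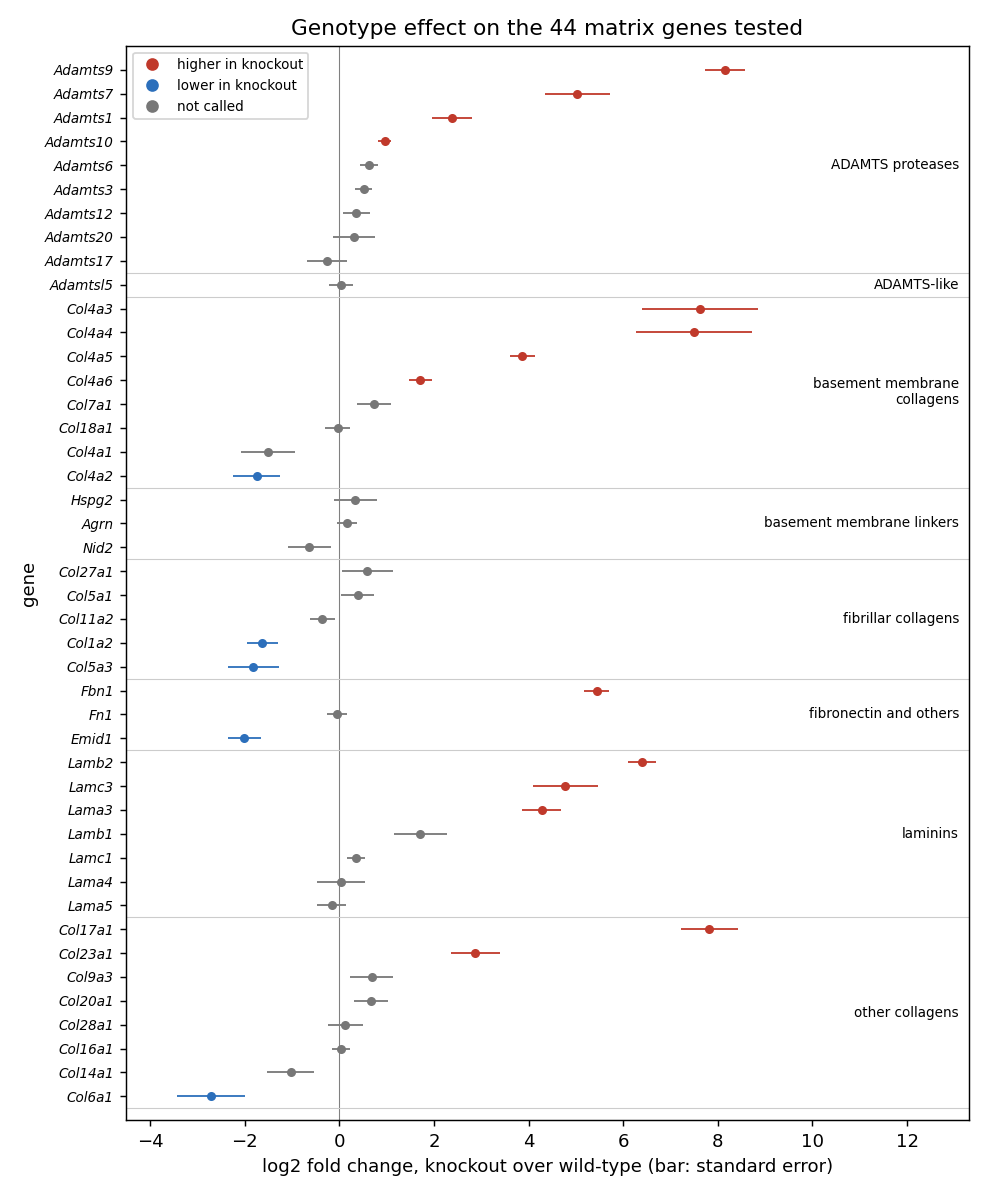
Log2 fold change of knockout over wild-type (points) with its standard error (bars) for the 44 matrix genes tested, by class. The 4 ADAMTS proteases called higher run from 0.96 to 8.15, and of the 6 collagen IV chains 4 are called higher and 1, Col4a2, lower; the sizes of Col4a3, Col4a4 and Col17a1 depend on the prior count.

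Within each model there is 1 library per genotype and so no test. In PF4-Cre 16 of the 57 genes were at least 2-fold higher and 8 at least 2-fold lower in knockout, where 10.7% and 3.4% of the 16034 genes with at least 20 counts were. In ROSA-Cre 23 were higher and 9 lower, beside 14.7% and 9.07% of genes. In both models at once 14 were higher, 13 of the genes past the test and Col8a2, beside 7.65% of genes, and 3 were lower (Emid1, Col1a2 and Col5a3), beside 1.67%. Col8a2, a short-chain collagen of the cornea and too low to test, had 11 and 3 counts in PF4-Cre knockout and wild-type and 7 and 0 in ROSA-Cre knockout and wild-type. The falls were deeper in ROSA-Cre for Emid1 (ratio 0.394 in PF4-Cre and 0.136 in ROSA-Cre), Col1a2 (0.481 and 0.18), Col4a2 (0.511 and 0.0908) and Col5a3 (0.401 and 0.127), and shallower for Col6a1 (0.0847 and 0.471), differences that could not be tested.

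**Figure D5:**
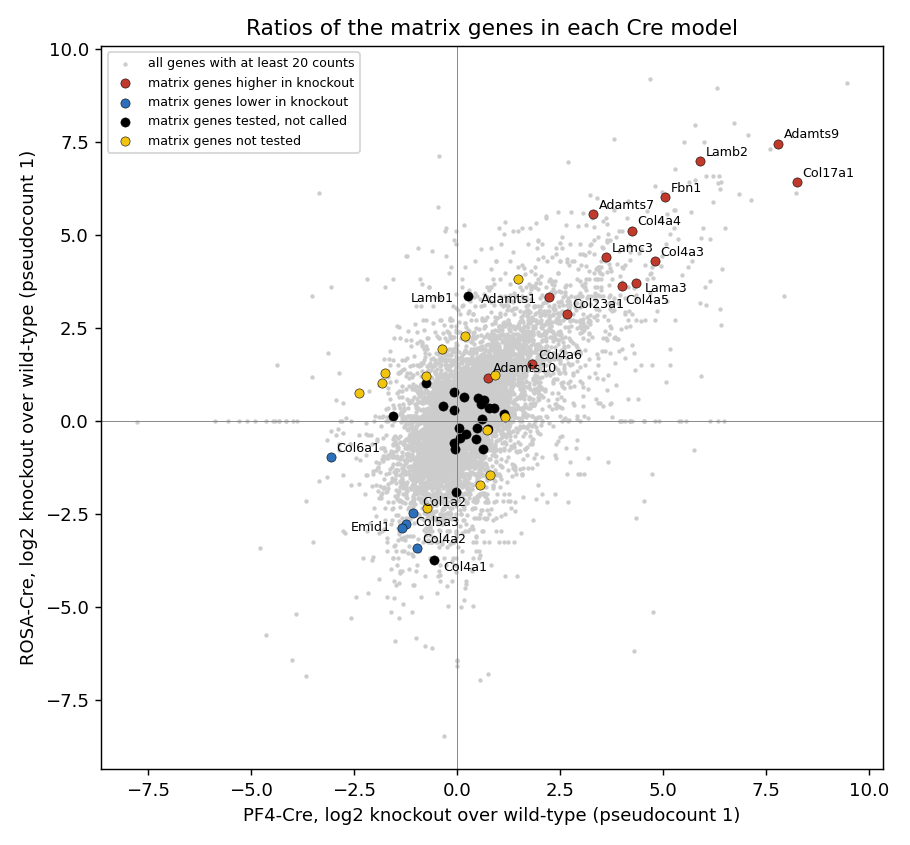
Log2 ratio of knockout over wild-type in ROSA-Cre against PF4-Cre for the matrix genes (coloured by the genotype test) and all genes with at least 20 counts (grey), with a pseudocount of 1. The 14 genes called higher lie in the upper right, led by Adamts9, Col17a1 and Lamb2, and Emid1, Col1a2, Col5a3, Col4a2 and Col6a1 in the lower left.

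The Cre model comparison asked which of these genes differed between PF4-Cre and ROSA-Cre libraries, averaged over the genotypes. In the same fit 6 of 44 tested members passed, beside 18.7% of all tested genes. Adamts1 and Lama3 were higher in PF4-Cre, by 2.79 log2 units (SE 0.52, adjusted p = 0.0147) and 1.38 (SE 0.38, adjusted p = 0.045). Adamts7, Lamb2, Col16a1 and Adamts10 were lower in PF4-Cre, with log2 differences of -2.37 (SE 0.48), -0.97 (SE 0.26), -0.81 (SE 0.19) and -0.65 (SE 0.14) and adjusted p values of 0.0162, 0.0431, 0.0285 and 0.0227. For Lamb2 and Adamts7 the models differed in knockout and hardly in wild-type. Lamb2 stood at 25.4 and 54.8 CPM in PF4-Cre and ROSA-Cre knockout and 0.402 and 0.406 in their wild-types. Adamts7 stood at 0.546 and 3.04 CPM in knockout and 0.0335 and 0.0406 in wild-type, on 2 and 1 counts there. The fit takes the same model difference for both genotypes, so it cannot show which genotype carries it. Model and sequencing depth cannot be told apart here, since the PF4-Cre libraries were the deeper ones. With 1 library left out and the genotype term dropped, 0 members passed in any of the 4 fits, and 0 to 8 did at an unadjusted p under 0.05.

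Other genes that make, cut or bind matrix were listed by function, with the results of these data known, and none is a member. Over all tested genes 12.6% were called higher and 9.59% lower, and the lists were not tested against that share. Among 28 enzymes that modify, fold or cross-link collagen, 20 were tested, of which 6 rose, 1 fell and 13 did not pass. Fkbp10, a folding factor of procollagen, rose by 2.19 (SE 0.32), Pcolce, the enhancer of procollagen C-protease, by 3.98 (SE 0.61), P4ha1, a prolyl hydroxylase subunit, by 0.86 (SE 0.13), Serpinh1, the collagen chaperone HSP47, by 2.73 (SE 0.49) and Plod2, a lysyl hydroxylase, by 0.73 (SE 0.18). Serpinh1 had 2029 and 140 counts in PF4-Cre knockout and wild-type and 464 and 172 in ROSA-Cre knockout and wild-type. P4hb, the disulfide isomerase that is also the prolyl hydroxylase beta subunit, fell by 0.77 (SE 0.16). The adjusted p of these ran from 0.00553 to 0.031.

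Of 24 matrix metalloproteases and their inhibitors 15 were tested, of which 3 rose, 2 fell and 10 did not pass. Timp3, an inhibitor held in the matrix that blocks several ADAMTS proteases, had 40121 and 10698 counts in PF4-Cre knockout and wild-type and 10737 and 4666 in ROSA-Cre knockout and wild-type, and rose by 1.62 (SE 0.16, adjusted p = 0.00147). The membrane proteases Mmp17 and Mmp16 rose by 2.75 (SE 0.37) and 1.82 (SE 0.44), while Timp2 fell by 1.33 (SE 0.27) and Mmp19 by 1.34 (SE 0.37). Of 13 ADAM proteases 8 were tested. Of these 0 rose (0 also at an unadjusted p under 0.05) and 2 fell, Adam22 by 1.14 (SE 0.24) and Adam11 by 1.29 (SE 0.28).

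Of 40 other matrix proteins 26 were tested, of which 6 rose, 0 fell (4 at an unadjusted p under 0.05) and 20 did not pass. Sparc, a collagen-binding protein of basement membranes, had 1263 and 31 counts in PF4-Cre knockout and wild-type and 352 and 10 in ROSA-Cre knockout and wild-type, and rose by 5.31 (SE 0.31, adjusted p = 0.000196). Ltbp1 and Ltbp3, which hold latent TGF-beta on fibrillin microfibrils, rose by 1.25 (SE 0.12) and 0.73 (SE 0.17), Postn by 4.13 (SE 0.44) and the proteoglycan Spock2 by 2.06 (SE 0.32). Of 30 matrix receptors 26 were tested, of which 7 rose, 2 fell and 17 did not pass. Ddr2, a receptor kinase for fibrillar collagen, had 151 and 7 counts in PF4-Cre knockout and wild-type and 17 and 1 in ROSA-Cre knockout and wild-type and rose by 4.35 (SE 0.52). The integrin subunits Itga3, a laminin receptor chain, Itgb3, Itga9 and Itgb5 rose by 3.16 (SE 0.49), 1.05 (SE 0.18), 1.37 (SE 0.30) and 2.45 (SE 0.60), while Itga4 and Itgb6 fell by 0.50 (SE 0.12) and 1.53 (SE 0.41). Gp6, the platelet receptor for collagen, had 807 and 94 counts in PF4-Cre knockout and wild-type and 105 and 72 in ROSA-Cre knockout and wild-type, and rose by 2.10 (SE 0.53, adjusted p = 0.0315). Endothelial markers, whose cells also make basement membrane, summed to 522 and 391 CPM in PF4-Cre knockout and wild-type and 553 and 432 CPM in ROSA-Cre knockout and wild-type, with 3 of 10 higher (Plvap, Emcn, Esam) and 0 lower. Within this list Tie1 had 5708 to 11235 counts per library, Tek 1503 to 5234 and Kdr 868 to 4955, and none of these passed the test. Others were near 0: Cdh5 and Cldn5 had 5 and 5, and 3 and 6, counts in PF4-Cre knockout and wild-type, and 0 and 0, and 2 and 0, in ROSA-Cre knockout and wild-type.

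Erythroid markers summed to 199.6 and 49.98 CPM in PF4-Cre knockout and wild-type and 329.5 and 103 CPM in ROSA-Cre knockout and wild-type, with the 4 globin genes of 8 higher and Klf1 and Car1 lower. The alpha-globin and beta-globin pairs are near-identical copies. Reads without a unique alignment were not counted to any gene, so the globin counts can be too low. Smooth muscle and pericyte markers summed to 1.01 and 0.669 CPM in PF4-Cre knockout and wild-type and 0.179 and 0.447 CPM in ROSA-Cre knockout and wild-type, with 0 of 7 called, 0 also at an unadjusted p under 0.05, and Cnn1 at 0 in all 4 libraries. Their part in the rises was not tested.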

How the data were processed

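RNA was sequenced from sorted megakaryocytes of 4 groups with 1 library each, grouped by their titles. The authors deposited raw HTSeq counts per Ensembl gene, not normalised. Per the submitters' processing notes the tools were TopHat2 2.0.10, SAMtools, DESeq and HTSeq, with mm10 and GRCm38 as builds. Whether mice were pooled, how strand was counted and which annotation release served are not given in the sources here. HTSeq's category lines were left out throughout (reads in no gene were 32.0% to 36.3% and ambiguous reads 0.448% to 0.532% of uniquely aligned reads). Symbols, positions and exonic lengths came from GENCODE M21 (40254 of 41214 identifiers matched), promoters from RefSeq. No pseudogene matched the rule.

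The fit used edgeR 4.0.16 in R 4.3.3: TMM, filterByExpr by genotype (minimum count 10), Cre model and genotype as terms, glmQLFit with its newer method, and Benjamini-Hochberg adjustment over all 15063 genes at 0.05. It left 1 residual and 6.25 prior degrees of freedom and a common biological coefficient of variation of 16.1%. SE is the absolute log2 change divided by the root of F. CPM are scaled to TMM library sizes. Within a model, ratios of normalised counts have 95% Clopper-Pearson intervals, and calls past 2-fold used a pseudocount of 1. Without molecular identifiers, reads are not independent molecules, so intervals and the floor of 3 counts hold for counting error alone. Figures used matplotlib 3.10.9.

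Members, lists and the rule for named genes were chosen with earlier results of these data known. That rule named every member past the genotype test, in each class up to 4 others by level and 2 by ratio (at least 100 counts), and up to 5 genes each way per list. Gp6, Col1a1, Col3a1, Col6a2, Col6a3, Col8a2, Adamts13, Vwf and untested members were chosen for naming with their values in view. Alternatives were DESeq2 1.42.0 (size factors, Wald test), other low-count filters, fits without the other factor or without 1 library (other factor dropped), a GC and length correction (natural splines, 4 degrees of freedom each), other fold limits and a pseudocount of 5, and, added after seeing the data, edgeR's older quasi-likelihood method. One gene under the limit of 20 counts is not reported here.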

Additional observations from a re-analysis of the deposited data

Results flagged for a closer look

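For 5 genes the knockout library was higher than its wild-type in one Cre model and lower in the other, with counting intervals clear of 1 in both, and none of them passed the genotype test. The difference between the models was not tested, since each model has 1 library per genotype. These intervals hold counting error alone, and the share of all genes that meet the same rule is not given. So the 5 are not a result particular to these genes. Of the 57 members, 20 had ratios in opposite directions in the 2 models (pseudocount 1). In PF4-Cre and ROSA-Cre the ratios of knockout over wild-type were 1.38 and 0.721 for Adamtsl5, 1.41 and 0.876 for Agrn, 1.16 and 0.785 for Fn1, 0.799 and 1.34 for Col16a1, and 0.596 and 2.02 for Col28a1.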

How the results depend on the processing

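The 14 higher and 5 lower calls were also all made with DESeq2 size factors and with the GC and length correction. The DESeq2 Wald test made 13 and 3 of them, gave no adjusted p for Col4a3 and Col6a1, and added Col4a1. With no low-count filter 2 genes were lower, 1935 of all genes were called (against 3348) and 3 members passed for the Cre model. With a mean of at least 5 CPM, which left 21 members to test, 9 were higher (Adamts3 and Adamts6 added) and 3 lower. Without the other factor 5 were higher and 0 lower, with 162 of all genes called and 0 members for the Cre model, where 5 members were lower and 2 passed for the Cre model at an unadjusted p under 0.05. The older quasi-likelihood method gave 3 lower, and 3 members for the Cre model, and the GC and length correction gave 2 for the Cre model. Without 1 library, higher calls ranged from 7 to 11, lower calls from 0 to 4 (3 to 5 at an unadjusted p under 0.05), all genes called from 509 to 883 and Cre model calls from 0 to 0 (0 to 8 unadjusted). Within PF4-Cre a 1.5-fold limit gave 26 higher, a 4-fold limit 2 lower, and at least 100 counts 2 lower. Within ROSA-Cre a 4-fold limit gave 15 higher, and at least 100 counts gave 12 higher and 5 lower. Of 196 values of the 19 called genes under these settings 145 kept their call, 51 lost it and 0 changed sign. Cases in which a called gene was not tested or had no adjusted p are not among the 196, though the call was not made there either. The summed level of fibronectin, fibrillin, fibulin and Emid1 genes changed direction in ROSA-Cre with length, from a log2 ratio of -0.44 per kilobase to 0.96 without that division. The labels carry no replicate numbers, and libraries are paired by Cre model through its term in the main fit. Depth limits the genes with wild-type counts near 0, whose fold changes have wide intervals.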
